A study of Mus musculus with 22 samples.

Results

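Distal intergenic sites are regions of open chromatin that lie far from any annotated gene. Here they were the peaks on mouse chromosomes 1 to 19 more than 50 kb from the bounds of every protein-coding and lncRNA gene of the RefSeq annotation of GRCm38.p6, with at least 100 counts summed over 22 libraries. This rule uses position and total count but no difference between groups, and it gave 6467 sites out of 96049 peaks. A site open in a single group can still reach the count minimum through that group. Without the count minimum, 11106 autosomal peaks were this far from genes, and 4639 of them were too low in counts. The nearest site inside the distance rule was 50008 bp from a gene, and the farthest peak outside it 49998 bp. At the count minimum, 57 members had 100 counts, and 67 peaks at the same distances had 99 and were left out.

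ATAC-seq uses Tn5 transposase to insert adapters into accessible DNA, and the number of fragments in a peak is a measure of how open that region is. The study profiled male germ cells of C57BL/6 mice aged 8 to 12 weeks to follow open chromatin once TERT, the protein subunit of telomerase, is lost. TERT-deleted cells, titled so by the submitters, came from KIT-positive, MCAM-medium KIT-negative and MCAM-high KIT-negative spermatogonia, with 3 libraries each. Control cells were TERT-heterozygous and had 3 KIT-positive, 2 MCAM-medium and 3 MCAM-high libraries. All 17 spermatogonial libraries were sorted 7 days after tamoxifen and carry the same genotype entry, TertCreER/+:Rosalsl-Tdtomato/+, which names a tamoxifen-dependent Cre at Tert and a Cre-dependent reporter. The deleted allele itself is not in that entry, so the genotype rests on the titles. Per the labels MCAM-high and MCAM-medium cells are undifferentiated and KIT-positive cells are differentiating. A further 5 libraries of TertTdtomato/+ genotype hold spermatocytes or round spermatids, called later germ cells here. Their labels carry no time after tamoxifen, their titles and library names disagree on the stage in 4 of 5, and all 5 library names begin with the same prefix. The labels do not say what that prefix stands for, and the libraries may be technical repeats of 1 animal.

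Spermatogonia are the mitotic germ cells of the testis. Undifferentiated ones include the stem cells, and expression of KIT, the receptor for stem cell factor, marks the step to differentiation, which is followed by meiosis in spermatocytes and by the haploid round spermatids. Regulatory regions far from genes, among them enhancers, are as a class more specific to a cell type than promoters are. A gene named here is the nearest by position, which does not show that a site acts on it.

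Some sites lay close to miRNA genes, which the distance rule does not count because their biotype is miRNA. Within 25 kb, a window chosen after the data were seen, 21 sites lay near 12 such genes whose mature sequences (15 in all) are taken from RefSeq, GRCm38.p6. The sequences of the 4 genes whose neighbouring sites are described below are given, since each is the product encoded next to those sites. Mir6401 lies at chr7:139779018-139779126 (+ strand), Mir137 at chr3:118433857-118433929 (+), Mir138-1 at chr9:122682876-122682974 (+) and Mir146, the gene of miR-146a, at chr11:43374397-43374461 (−). The capitals mark the seed, bases 2 to 8, which pairs with targets, and no pair of them shares a seed.
miR-6401: uUACACUCcaguggugucgggu
miR-137-5p: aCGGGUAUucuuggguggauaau
miR-137-3p: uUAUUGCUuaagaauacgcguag
miR-138-5p: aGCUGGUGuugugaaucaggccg
miR-138-1-3p: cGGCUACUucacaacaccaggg
miR-146a-5p: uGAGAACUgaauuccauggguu
miR-146a-3p: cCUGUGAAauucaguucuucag

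The libraries held between 922085 and 3358377 counts in peaks, and the KIT-positive ones between 922085 and 1970643. A distal site had a median of 178 counts over all libraries, against 262 for the other autosomal peaks with at least 100 counts, so single sites are measured less precisely than peaks near genes. Values below are CPM, counts relative to library size, scaled by TMM over the 22 libraries, and 3 counts, the floor used for a group at 0, correspond to 0.893 to 3.25 CPM in a library. In 3 libraries over 70% of the nonzero counts were even numbers (control KIT-positive replicate 3, deleted KIT-positive replicate 1 and deleted MCAM-medium replicate 3), which stood apart from the other 19. Tert had 1 peak, at a gene end (chr13:73626569-73627516), with 12.5 to 21.1 CPM in deleted and 13.5 to 30 CPM in control spermatogonia. Its mean log2 fold change was -0.28 ± 0.20 (SE, edgeR adjusted p = 0.976), and a peak outside the deleted part would check nothing. The gene-end peak of Kit averaged 66.3 CPM in deleted KIT-positive and 32.5 CPM in deleted MCAM-high cells, and 60.7 CPM in control KIT-positive and 30.9 CPM in control MCAM-high cells. Summed gene-end peaks of spermiogenesis genes held 954 to 1060 CPM in later germ cells and 405 to 620 CPM in control KIT-positive cells. Both were higher in the cells whose labels name that stage. For differentiating spermatogonia (15 genes with such a peak) the sums were 640 to 848 CPM in control KIT-positive cells. In control MCAM-high cells they were 440 to 474 CPM, although Ccnd3 (13.6 and 28.7 CPM) and Rara (4.56 and 8.03 CPM) went the other way. The 27 genes of undifferentiated spermatogonia did not separate these groups, with sums of 565 to 793 and 616 to 673 CPM.

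The distal sites were slightly narrower in the median than other peaks, and most had a long noncoding RNA gene as their nearest gene. Their median width was 470 bp, against 504 bp for the other autosomal peaks of that depth, and their median distance to a gene was 125806 bp. The nearest gene was a lncRNA at 3822 sites (59.1%) and protein-coding at 2645 (40.9%). These shares were not computed for other peaks. Pseudogenes and other small features are not part of the rule, and 466 sites (7.21%) overlapped a gene of another biotype, 385 of them a pseudogene. With every biotype counted, 4036 sites (62.4%) were still more than 50 kb from any gene. Chromosome 14 had the highest share of distal sites among its peaks (423 sites, 13.8%) and chromosome 19 the lowest (86 sites, 4.28%). The site farthest from a gene, chr3:43428770-43429297, lay 1625463 bp from D3Ertd751e and had 1.95 to 3.82 CPM in later germ cells and 9.46 to 12.9 CPM in control MCAM-high cells.

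KIT-positive spermatogonia put a smaller share of their counts into distal sites than KIT-negative ones did, in both genotypes, and later germ cells a larger one. The share was 2.35%, 2.95% and 2.86% in deleted KIT-positive libraries, against 4.30%, 4.26% and 4.43% in deleted MCAM-high libraries. In control cells it was 3.26%, 2.72% and 2.22% in KIT-positive libraries, against 4.07%, 4.34% and 4.63% in MCAM-high libraries. The KIT-positive and MCAM-high groups did not overlap in either genotype. Deleted MCAM-medium libraries had 3.91%, 3.97% and 3.89%, and control MCAM-medium libraries 4.20% and 4.17%, so both lay between the KIT-positive and the highest MCAM-high values. The 5 later libraries had 4.38%, 4.70%, 5.50%, 5.74% and 5.32%. Only the lowest of these fell inside the range of the KIT-negative libraries, 3.89 to 4.63%.

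**Figure D1:**
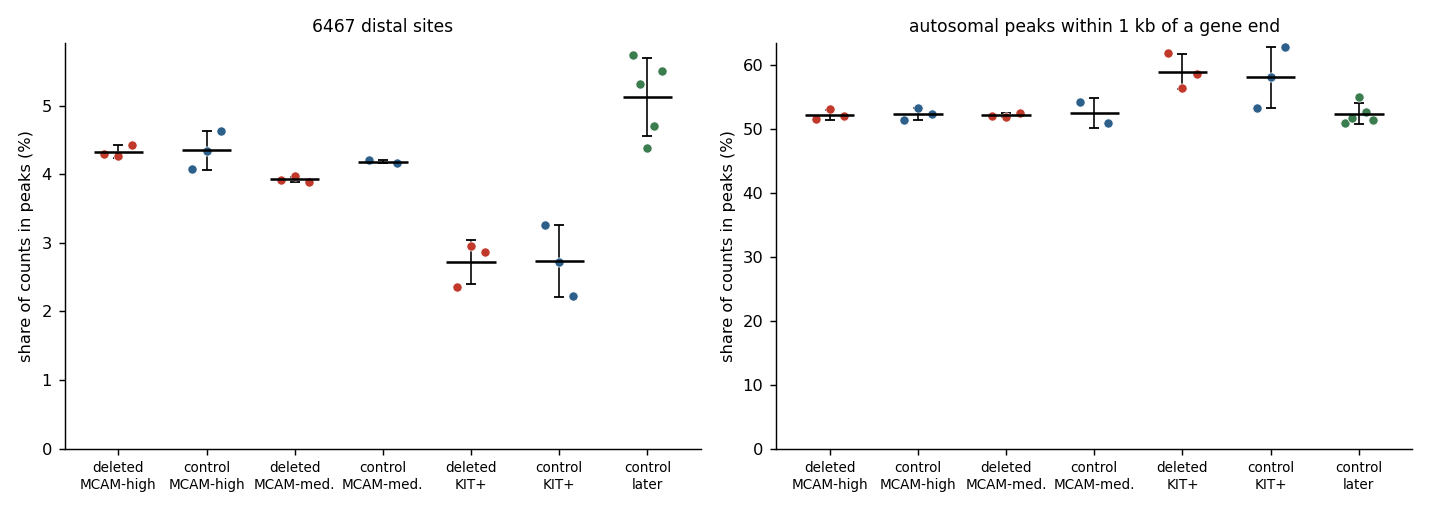
Share of the counts in peaks (percent, vertical axis) that fell in the 6467 distal sites, with 1 point per library and a bar at the mean of each group. All 6 KIT-positive libraries sit between 2.22% and 3.26%, below all 11 KIT-negative libraries, which start at 3.89%.

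Ordered by group means within control cells, the share ran as 4.35 ± 0.28% in MCAM-high (SD, n = 3), 4.19 ± 0.0212% in MCAM-medium (n = 2), 2.73 ± 0.52% in KIT-positive (n = 3) and 5.13 ± 0.568% in later cells (n = 5). MCAM-high and MCAM-medium differed by less than the spread of MCAM-high libraries. In deleted cells the means were 4.33 ± 0.0889%, 3.92 ± 0.0416% and 2.72 ± 0.324% (n = 3 each). The deleted MCAM-medium libraries were all below the deleted MCAM-high and the control MCAM-medium ones, by less than 1 percentage point. The lowest 2 shares among KIT-positive libraries belonged to control replicate 3 and deleted replicate 1, in which 73.9% and 70.5% of nonzero counts were even. The 3 KIT-positive libraries with 50.7%, 51.7% and 52.9% even counts had shares of 3.26%, 2.86% and 2.95%, still below all KIT-negative libraries. KIT-positive libraries also had more of their counts at gene ends, 53.3 to 62.9% against 50.9 to 54.2% in KIT-negative ones. Summed gene-end peaks of other cell types were 242 to 264 CPM in control KIT-positive and 211 to 225 CPM in control MCAM-high cells for Sertoli cells (10 of 14 genes with such a peak). Of these 10, Dmrt1, which the list of differentiating spermatogonia also holds, averaged 80.2 CPM in control KIT-positive and 30.6 CPM in control MCAM-high cells, Sox9 14.9 and 6.93 CPM and Clu 16.6 and 16.4 CPM, while the other 7 were lower in KIT-positive cells. The sums were 31.1 to 50.9 CPM in control KIT-positive and 50 to 67.3 CPM in control MCAM-high cells for Leydig cells (2 of 8 genes), 49.8 to 59.9 and 58.7 to 69.4 CPM for immune cells (5 of 10) and 86.1 to 133 and 101 to 117 CPM for peritubular and endothelial cells (7 of 12), with no gene at 0 in all 17 libraries. The part of these differences in the result was not tested. In cells sorted in bulk, fewer cells with an open site and less opening per cell cannot be told apart.

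Site by site, distal chromatin was mostly lower in KIT-positive cells. In control cells 80 of 4248 sites deep enough to test were higher and 443 lower in KIT-positive than in MCAM-high cells (edgeR quasi-likelihood test, adjusted p under 0.05), or 1.88% and 10.4%. Of all 57289 peaks tested, 15.8% were called, 9.64% higher and 6.11% lower, so among distal sites lower calls were the more frequent and among all peaks higher calls were. The median log2 fold change was -0.69 over the tested distal sites and -0.05 over all tested peaks. The filter on low counts removes sites that are weak in every group of libraries, so all 6467 sites were also fitted with no filter. Their median was then -0.58, with 70.5% of sites below 0, against -0.04 and 51.6% over all peaks. The count of calls leaned on single libraries: in place of 523, fits without 1 library called 270 in all without control KIT-positive replicate 3, 297 with replicate 2 of control MCAM-high cells left out and 316 with their replicate 3 left out. Lower calls outnumbered higher ones in each of the leave-one-out fits of this comparison.

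The same comparison in TERT-deleted cells uses none of these libraries. There 82 distal sites (1.93%) were higher and 317 (7.46%) lower in KIT-positive than in MCAM-high cells, against 9.39% and 4.35% of all peaks, 13.7% in all. Without TMM scaling the split was 55 higher and 467 lower, and the median of all peaks was then -0.28 instead of -0.05. The median was -0.59 over tested distal sites, and -0.51 over all 6467 with no filter, of which 70% were below 0. Single libraries mattered here as well, with 230 called without deleted MCAM-high replicate 2, 231 without deleted MCAM-high replicate 3, 240 without deleted KIT-positive replicate 1 and 248 without deleted KIT-positive replicate 2, and lower calls were the more frequent in each. Whether the 3 libraries of a group overlap the other 3 needs no model. In control cells every KIT-positive library was below every MCAM-high library at 1352 of the 6467 sites (20.9%) and above at 291 (4.5%), against 13.4% and 14% of all autosomal peaks of that depth. In deleted cells these counts were 1265 (19.6%) and 291 (4.5%), against 13% and 15.5%.

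The difference grew with distance from genes. In control cells the median log2 fold change, KIT-positive minus MCAM-high, was 0.20 at gene ends, -0.08 in gene bodies, -0.14 at 1 to 10 kb and -0.32 at 10 to 50 kb. Within the distal sites it was -0.56 at 50 to 100 kb (1807 sites tested), -0.73 at 100 to 200 kb (1126), -0.86 at 200 to 500 kb (939) and -0.80 beyond 500 kb (376). Higher calls thinned out along the same order, with 46, 28, 5 and 1 sites, while lower calls numbered 156, 116, 130 and 41. In deleted cells the medians of these 4 distal classes were -0.44, -0.60, -0.79 and -0.78. The steps from the gene end to 500 kb thus ran the same way in both genotypes, and the last class did not go lower. Distal sites also have fewer counts than other peaks, but within each class of total counts their median was below that of the other intergenic peaks in both genotypes.

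**Figure D2:**
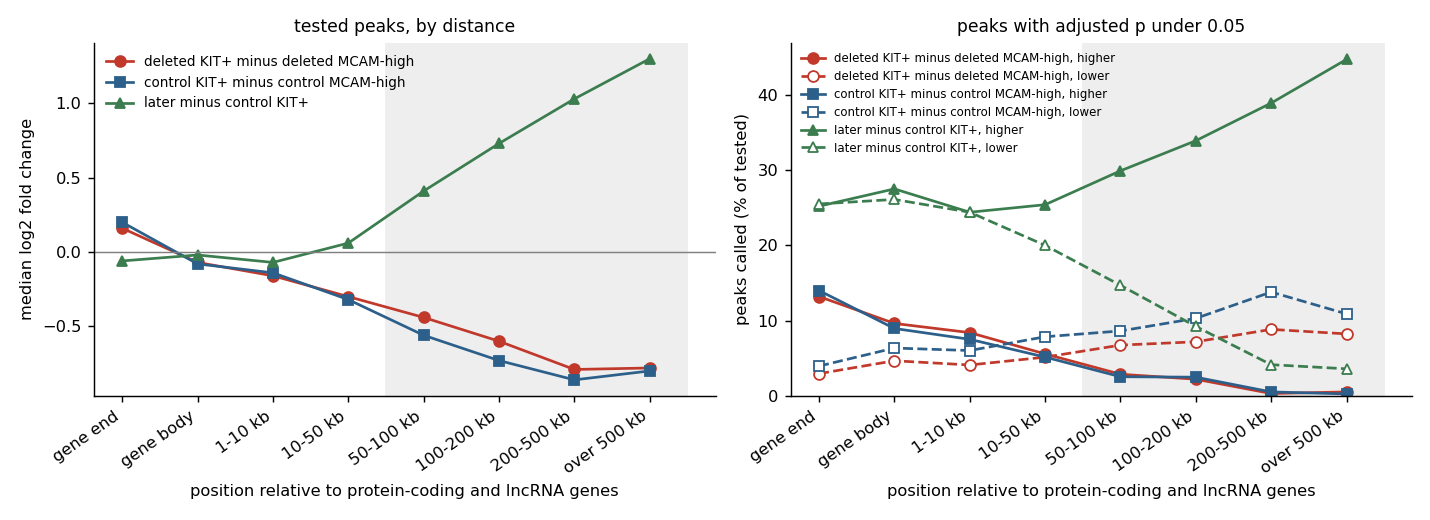
Median log2 fold change (vertical axis) in classes of distance from genes (horizontal axis) for KIT-positive minus MCAM-high cells of both genotypes and for later germ cells minus control KIT-positive cells. The KIT-positive lines fall from 0.20 (control) and 0.16 (deleted) at gene ends to -0.80 and -0.78 beyond 500 kb, and the line of later germ cells runs the other way, from -0.06 to 1.30.

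The sites called in control cells mostly had the same direction in the deleted libraries, as all called peaks did. Of the 443 sites lower in control KIT-positive cells, 419 (94.6%) also had a negative fold change in deleted cells, 139 (31.4%) were called there and none was called higher. Over all peaks called lower in control cells, 94.6% had the same sign and 34.4% were called in deleted cells, so both shares among distal sites are near that background. At these 443 sites the median was 4.62 CPM in deleted KIT-positive and 11 CPM in deleted MCAM-high cells, with 9.12 CPM in deleted MCAM-medium cells and 4.73 CPM in later germ cells. Of the 80 sites higher in control KIT-positive cells, 76 (95%) were positive in deleted cells and 43 (53.8%) were called, against 98% and 60.5% over all peaks called higher. Their median was 12.5 CPM in deleted KIT-positive and 3.15 CPM in deleted MCAM-high cells, with 4.44 CPM in deleted MCAM-medium and 2.48 CPM in later cells.

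**Figure D3:**
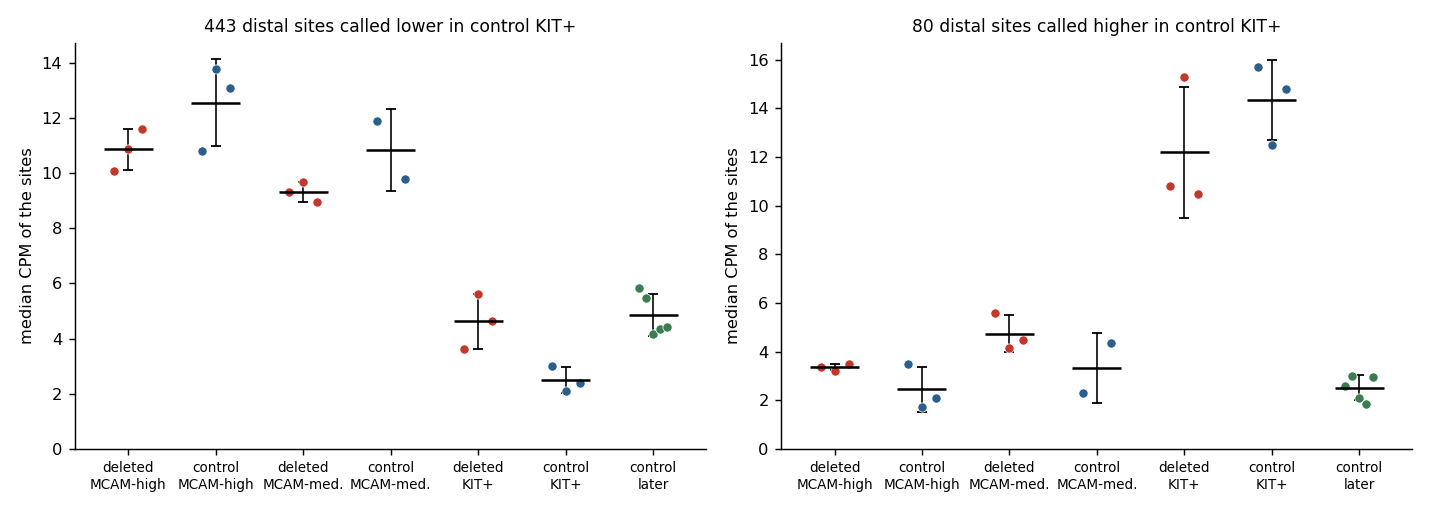
Median CPM (vertical axis) in each library of the 443 distal sites called lower and the 80 called higher in control KIT-positive than in control MCAM-high cells. The control KIT-positive and MCAM-high libraries chose the sites, and the deleted and later libraries did not. In the deleted libraries the lower set stands at 4.62 CPM in KIT-positive and 11 CPM in MCAM-high cells.

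Across the 4248 tested sites, the fold changes of the control and the deleted comparison correlated with Pearson's r of 0.48 and Spearman's rho of 0.44, a description across sites, which are not independent. Over all 57289 peaks the values were 0.65 and 0.64. Distal sites carry fewer counts, and within the deepest class of sites r was 0.51. The plot of both comparisons shows the points spread mostly below 0 on both axes.

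**Figure D4:**
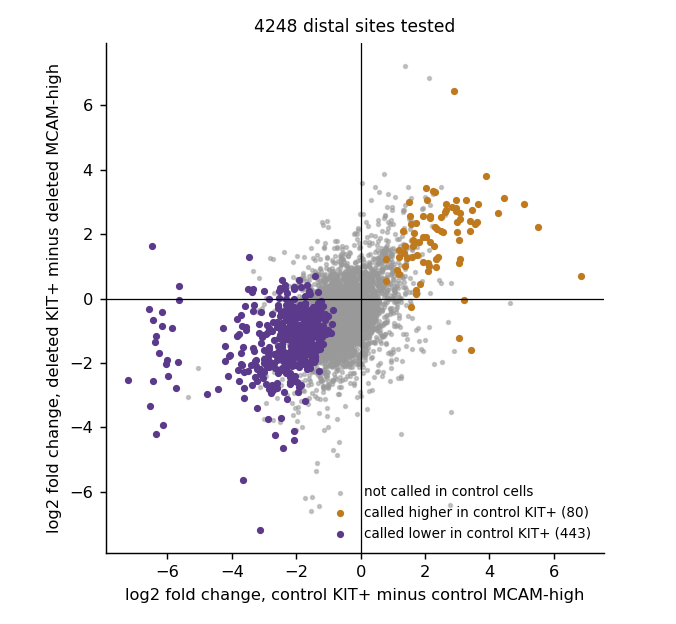
Log2 fold change of KIT-positive minus MCAM-high cells for each of the 4248 tested distal sites, in control cells on the horizontal and in deleted cells on the vertical axis. More points lie below 0 than above 0 on both axes (Pearson's r 0.48), and sites called in control cells are coloured.

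Set against MCAM-medium instead, control KIT-positive cells had 41 distal sites higher (0.965%) and 253 lower (5.96%), against 5.7% and 3.62% of all peaks, 9.32% in all. The median was -0.60, against -0.04 over all peaks. Here too the count rested on few libraries, since separate fits called, in place of 294, a total of 114 without control MCAM-medium replicate 1, 145 without control KIT-positive replicate 3 and 189 without control MCAM-medium replicate 2. Both comparisons share the KIT-positive libraries. Between MCAM-medium and MCAM-high control cells, edgeR called 0 distal sites and 0% of all peaks, DESeq2 called 0, and 68 distal sites had an unadjusted p under 0.05. With 2 MCAM-medium libraries, this does not show that the populations are alike.

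The 8 distal sites with the highest mean CPM over the 7 groups held different patterns, but all 8 were called lower in later germ cells than in control KIT-positive cells. The strongest, chr8:73353151-73354771, lies 566542 bp from Gm39198, a lncRNA, with 4046 counts in all. It had 153, 148 and 169 CPM in deleted KIT-positive cells, against 81.9, 130 and 133 CPM in deleted MCAM-high cells. In control cells it had 127, 116 and 152 CPM in KIT-positive cells, against 121, 159 and 145 CPM in MCAM-high cells. The deleted KIT-positive libraries were above the deleted MCAM-high ones and the control groups overlapped, and neither comparison passed (edgeR adjusted p = 0.165 in deleted and 0.816 in control cells). Later germ cells had 42.7, 37.2, 39.1, 33.7 and 31.2 CPM, all below every spermatogonial library, and the log2 fold change against control KIT-positive cells was -1.86 ± 0.20 (SE, edgeR adjusted p = 1.59e-11).

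The third-ranked site, chr14:87264273-87265118, is 123026 bp from Diaph3, which encodes a formin that assembles actin filaments. It had 21.7, 29.3 and 25.6 CPM in deleted KIT-positive cells, against 85.3, 104 and 67.4 CPM in deleted MCAM-high cells. Control KIT-positive cells had 25.5, 18.7 and 58.7 CPM, against 101, 125 and 72 CPM in control MCAM-high cells. No KIT-positive library reached the MCAM-high range, although control KIT-positive replicate 3 stood well above the other two. The log2 fold change was -1.76 ± 0.29 in deleted (SE, edgeR adjusted p = 4.04e-05) and -1.48 ± 0.28 in control cells (edgeR adjusted p = 0.000167), or -2.13 without that replicate. Later germ cells were lower again, at 3.13, 5.57, 5.91, 13.6 and 11 CPM, with a log2 fold change of -2.24 ± 0.32 against control KIT-positive cells, or -1.65 without control KIT-positive replicate 3. MCAM-medium libraries of both genotypes held 75.5 to 130 CPM, as high as MCAM-high ones.

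At chr1:112485977-112487192, 69059 bp from the lncRNA gene Gm32810, the level also fell in KIT-positive cells of both genotypes. It was 45.2, 44.2 and 18.6 CPM in deleted KIT-positive cells, against 55.7, 82.2 and 72.1 CPM in deleted MCAM-high cells. It was 51.7, 33.2 and 46.8 CPM in control KIT-positive cells, against 88.8, 76.8 and 102 CPM in control MCAM-high cells. The groups did not overlap in either genotype, and the log2 fold change was -0.98 ± 0.26 in deleted (edgeR adjusted p = 0.00822) and -1.0 ± 0.25 in control cells (0.00425). The opposite direction was seen at chr8:118027455-118028615, 79025 bp from the lncRNA gene Gm39262. There deleted KIT-positive cells had 84.1, 107 and 81.4 CPM, against 35.5, 33.4 and 44.2 CPM in deleted MCAM-high cells (log2 fold change 1.24 ± 0.25, edgeR adjusted p = 0.000601). Control KIT-positive cells had 111, 72.7 and 73.5 CPM, against 47.2, 48.8 and 55.7 CPM in control MCAM-high cells. The groups were again apart, with a log2 fold change of 0.77 ± 0.24 (edgeR adjusted p = 0.0221), and the control call was lost without control KIT-positive replicate 1 (0.148), control MCAM-high replicate 1 (0.0618) or control MCAM-high replicate 2 (0.0798), and with no TMM scaling (0.058) or no filter (0.0529).

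The 8 sites with the largest rise in control KIT-positive cells included some that were nearly closed elsewhere. At chr8:92519279-92520070, 154219 bp from Irx6, an Iroquois homeobox transcription factor, deleted KIT-positive cells had 28.9, 26.2 and 11.6 CPM, against 10.1, 1.28 and 1.55 CPM in deleted MCAM-high cells. Control KIT-positive cells had 36.7, 30.1 and 28.4 CPM, against 2.1, 2.59 and 3.15 CPM in control MCAM-high cells. KIT-positive libraries were above the MCAM-high ones throughout, with log2 fold changes of 2.39 ± 0.58 in deleted (SE, edgeR adjusted p = 0.00389) and 3.60 ± 0.56 in control cells (1.27e-05). Later germ cells were back at 0, 1.86, 5.91, 2.6 and 2.19 CPM, a log2 fold change of -3.83 ± 0.49 against control KIT-positive cells (edgeR adjusted p = 3.36e-09). The site at chr6:91588062-91588474, 65442 bp from Lsm3, an LSm protein of RNA splicing, had the same course. Deleted KIT-positive cells had 23.5, 16.2 and 14.7 CPM, against 3.38, 2.57 and 0 CPM in deleted MCAM-high cells, and control KIT-positive cells 25.5, 9.34 and 25.5 CPM, against 0.699, 0.863 and 1.05 CPM in control MCAM-high cells. These groups were apart in both genotypes (log2 fold change 3.12 ± 0.68, edgeR adjusted p = 0.0013, in deleted and 4.46 ± 0.70, 1.21e-05, in control cells).

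A site at chr4:34239542-34240028, 67800 bp from the lncRNA gene Gm33286, was the only 1 of the 6467 with more than 10 CPM on average in both KIT-positive groups and under 2 CPM in the other 5 groups. Among all autosomal peaks of that depth 49 had this profile (0.0694%, against 0.0155% of the distal sites). Its level was 10.8, 19.3 and 15.5 CPM in deleted KIT-positive cells, against 1.69, 1.28 and 0 CPM in deleted MCAM-high cells. It was 16.5, 8.3 and 9.48 CPM in control KIT-positive cells, against 1.05, 0 and 1.05 CPM in control MCAM-high cells, so the groups lay far apart. Both comparisons passed, with 3.82 ± 0.86 in deleted (edgeR adjusted p = 0.00183) and 3.89 ± 0.83 in control cells (0.000849). At chr1:137194190-137194670, 158883 bp from Gm34244, the control MCAM-high libraries had 0 counts and control KIT-positive cells 35, at least 18.3-fold higher against a floor of 3 counts over the group. Deleted cells did not repeat this, with 7.23, 7.48 and 4.65 CPM in KIT-positive and 5.07, 0.642 and 6.2 CPM in MCAM-high cells, which overlap. Of the 8 sites, 6 were called higher in deleted KIT-positive cells as well. Comparisons with later germ cells use the same control KIT-positive libraries as those with control MCAM-high cells, so the values of both are only given side by side.

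Among the 8 sites with the largest drop, control KIT-positive libraries held 0 counts at the leading site, chr3:112310568-112311102, 228567 bp from the lncRNA gene Gm6602. Control MCAM-high libraries had 5.94, 16.4 and 12.1 CPM there, so the level was at least 16.6-fold lower in KIT-positive cells. Deleted KIT-positive cells kept 3.62, 2.49 and 2.33 CPM, against 11.8, 19.9 and 16.3 CPM in deleted MCAM-high cells, again with no overlap (log2 fold change -2.53 ± 0.60, edgeR adjusted p = 0.0031). All 8 sites had a negative fold change in deleted cells, and 3 of them were called. In the other direction from the Gm33286 site, 4 of the 6467 sites averaged over 10 CPM in the 4 KIT-negative groups and under 2 CPM in both KIT-positive ones, near Gm45942, Cenpw, Gm31456 and Kdm4c. Among all autosomal peaks of that depth 17 did (0.0241%, against 0.0619% of the distal sites).

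**Figure D5:**
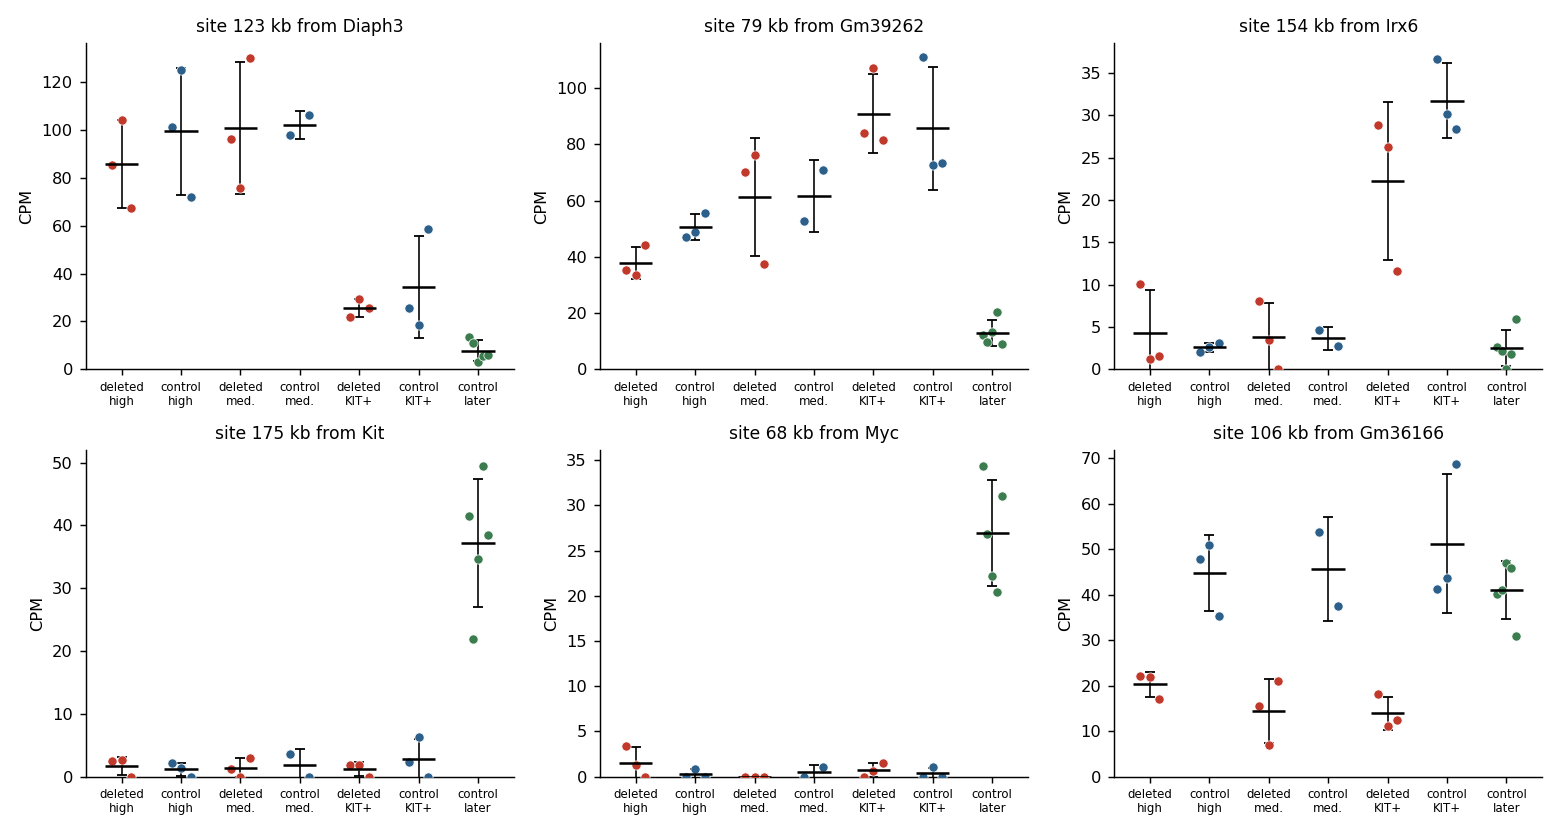
CPM (vertical axes) per library at 6 distal sites, with groups along the horizontal axes and a bar at each group mean. The sites nearest Diaph3, Gm39262 and Irx6 separate KIT-positive from MCAM-high cells, those nearest Kit and Myc are high in later germ cells only, and that nearest Gm36166 is lower in every deleted group than in its control group.

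Many distal sites were more open in later germ cells. Against control KIT-positive cells 1999 of 5790 tested sites were higher (34.5%) and 561 lower (9.69%), while of all 73134 peaks 52% were called, 29.2% higher and 22.8% lower. The median log2 fold change was 0.74 over distal sites and 0.12 over all peaks. With no filter, the 6467 sites had a median of 0.68 with 32.9% below 0, against 0.19 and 45.3% over all peaks. The distal median varied with depth. From the lowest to the highest class of total counts it was 0.86 (2358 sites), 0.75, 0.51, 0.42, 0.66 and -0.34 (47 sites). The other intergenic peaks had 0.35 in the lowest and -0.52 in the highest class, and the distal median was above theirs in each class. The count minimum is summed over all 22 libraries, so sites weak in spermatogonia can enter through the later libraries. Every later library was above every control KIT-positive one at 2047 sites (31.7%) and below at 477 (7.38%), against 24.8% and 18.8% of all autosomal peaks of that depth. With RLE size factors the calls were 2208 higher and 463 lower, with a median over all peaks of 0.31. Spermatocytes and round spermatids differ from spermatogonia in genotype label, in tamoxifen, which only the labels of spermatogonia give, and possibly in number of mice. These differences cannot be told apart from stage. Markers of other cell types moved as well: the same Sertoli cell peaks held 87.9 to 105 CPM in later and 242 to 264 CPM in control KIT-positive cells, immune cell peaks 17 to 30.9 and 49.8 to 59.9 CPM, Leydig cell peaks 13 to 19.8 and 31.1 to 50.9 CPM, peritubular and endothelial cell peaks 36.1 to 57.1 and 86.1 to 133 CPM, and their part in the result was not tested.

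With distance from genes the medians ran the other way here. The median log2 fold change, later minus control KIT-positive, was 0.41 at 50 to 100 kb, 0.73 at 100 to 200 kb, 1.03 at 200 to 500 kb and 1.30 beyond 500 kb. The share of tested sites called higher was 29.9%, 33.9%, 38.9% and 44.7%, and the share called lower 14.7%, 9.23%, 4.15% and 3.6%. The 1999 higher sites were low in all spermatogonia, with medians of 1.69 CPM in control KIT-positive cells and 2.05, 2.34 and 2.88 CPM in deleted KIT-positive, MCAM-medium and MCAM-high cells, against 13.1 CPM in later germ cells. The 561 lower sites had 2.17 CPM in later and 9.82 CPM in control KIT-positive cells. Deleted cells, which did not enter that test, had 8.83 CPM in KIT-positive, 8.92 CPM in MCAM-medium and 6.24 CPM in MCAM-high cells. In all, 312 sites (4.82%) averaged under 2 CPM in each of the 6 spermatogonial groups and over 10 CPM in later germ cells, and 3.26% of all autosomal peaks of that depth did. At such a level the 5 later libraries alone supply most of the 100 counts required. These sites thus passed the count minimum largely through the group in which they are high, as did the autosomal peaks beside them. The reverse pattern was found at 7 sites (0.108%, against 0.2%), and 88 sites (1.36%) were over 10 CPM in all 7 groups, against 17.2%.

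The clearest example of a site open in later germ cells only was chr15:69634285-69635188, 289045 bp from Gm19782. Later libraries had 33, 35.9, 41.4, 63.6 and 36.7 CPM, and all 6 KIT-positive and the 3 deleted MCAM-high libraries 0 counts. Against control KIT-positive cells the level was at least 52-fold higher. Near Has2, which encodes a hyaluronan synthase, a site at chr15:56601462-56601927 had 30.9, 36.5, 43.6, 43.5 and 30.7 CPM in later cells and 0 counts in control KIT-positive cells, at least 45.9-fold higher. Spermatogonia of the other groups held at most 3.38 CPM there. Among the sites that closed, chr4:142568936-142569494, 62244 bp from Gm42342, had 1.04, 1.24, 0.739, 1.95 and 0.548 CPM in later cells, against 28.5, 27 and 26.1 CPM in control KIT-positive cells. No later library came near the spermatogonia, of which the lowest had 12.4 CPM, and the log2 fold change was -4.59 ± 0.44 (SE, edgeR adjusted p = 5.44e-13).

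Most sites stood alone, and some formed groups with their neighbours. Joined where gaps were at most 10 kb, 4449 sites stood alone, 747 formed pairs, 118 groups held 3 sites, 32 held 4, 7 held 5 and 1 held 7. This last group, chr18:82160970-82170761, is 200462 bp from Gm30593 and 221735 bp from Galr1, a galanin receptor gene. All 7 sites were higher in later germ cells. Its strongest site, chr18:82167359-82168053, had 84, 82.4, 102, 119 and 79.4 CPM in later cells, against 3, 13.5 and 0 CPM in control KIT-positive cells. The lowest later library was far above the highest KIT-positive one, with a log2 fold change of 4.32 ± 0.41 (edgeR adjusted p = 4.55e-13), or 6.01 without control KIT-positive replicate 2 and 3.52 without replicate 3.

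Genes of developmental transcription factors are often surrounded by long gene-free stretches. Of a list of 91 such genes, 56 were the nearest gene, or the nearest protein-coding gene, of at least 1 distal site, 289 sites in all. In later germ cells 64 of 259 tested were higher (24.7%) and 28 lower (10.8%) than in control KIT-positive cells, with a median of 0.34, against 34.5% and 9.69% of the tested distal sites. In control cells 13 of 207 were higher (6.28%) and 22 lower (10.6%) in KIT-positive than in MCAM-high cells (median -0.55), against 1.88% and 10.4% of the tested distal sites. In deleted cells 11 (5.31%) were higher and 10 (4.83%) lower (median -0.35), against 1.93% and 7.46%. The list was chosen with earlier results known, and its medians are nearer 0 than those of the distal sites as a whole. The pair near Zfhx3, a zinc finger homeobox factor, went both ways. At chr8:108195210-108195905, 83406 bp away, deleted KIT-positive cells had 27.1, 25.5 and 27.9 CPM, against 5.07, 5.14 and 5.43 CPM in deleted MCAM-high cells, and control KIT-positive cells 35.2, 14.5 and 40.3 CPM, against 11.2, 6.91 and 12.6 CPM in control MCAM-high cells. The groups were apart in both (log2 fold change 2.33 ± 0.47, edgeR adjusted p = 0.000475, in deleted and 1.58 ± 0.40, 0.00436, in control cells). The site fell by 3.75 on the log2 scale in later germ cells. At chr8:108215022-108215739, 63572 bp away, control KIT-positive cells had 12, 6.23 and 4.74 CPM, against 21.3, 20.7 and 25.8 CPM in control MCAM-high cells, a log2 fold change of -1.55 ± 0.41 (edgeR adjusted p = 0.0062), and deleted cells did not pass (-0.48 ± 0.41, 0.472). Both control calls were lost without control KIT-positive replicate 3 (adjusted p = 0.0578 and 0.0736).

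Near Satb1, which encodes a protein that organizes chromatin loops, chr17:51677423-51678432 (57755 bp away) had 14.2, 6.23 and 7.7 CPM in control KIT-positive cells, against 23.4, 33.7 and 39.9 CPM in control MCAM-high cells. The groups were apart (log2 fold change -1.75 ± 0.39, edgeR adjusted p = 0.00131), whereas deleted cells, with 3.62, 15 and 21.7 CPM in KIT-positive and 30.4, 19.3 and 17.1 CPM in MCAM-high cells, overlapped and did not pass (-0.72 ± 0.39, 0.22). Later germ cells were higher than control KIT-positive ones, by 1.48 ± 0.34 (edgeR adjusted p = 0.00025). Near Dach1, a transcriptional cofactor gene, chr14:97591683-97592111 (194735 bp away) had 18.1, 14.2, 18.5, 20.8 and 20.3 CPM in later cells, against 2.25, 4.15 and 1.19 CPM in control KIT-positive cells. All later libraries were the higher ones, with a log2 fold change of 2.92 ± 0.57 (edgeR adjusted p = 2.24e-05).

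Genes of undifferentiated spermatogonia were the nearest gene, or nearest protein-coding gene, of 9 sites, of which 0 of 7 tested were called in control cells, 1 was higher in deleted KIT-positive cells, and 2 of 9 were higher and 1 lower in later germ cells. Spermiogenesis genes had 6 sites, with 1 of 4 tested higher in KIT-positive cells of both genotypes, and 1 of 5 higher and 1 lower in later germ cells. Meiosis genes had 0. Of all tested distal sites, 1.88% were called higher and 10.4% lower in control KIT-positive cells, and 1.93% and 7.46% in deleted ones. In later germ cells 34.5% were called higher and 9.69% lower. With so few sites per list, the counts given here are a description. Kit was the nearest gene, or nearest protein-coding gene, of 7 sites. While its own gene-end peak was higher in KIT-positive cells, 0 of its 6 tested distal sites were called higher and 1 was lower in control cells. That site, chr5:75449952-75450878, is 124109 bp from Kit and had 3, 5.19 and 7.11 CPM in control KIT-positive cells, against 14, 15.1 and 24.2 CPM in control MCAM-high cells (log2 fold change -1.74 ± 0.45, edgeR adjusted p = 0.00621). Deleted cells overlapped, with 13.6, 11.2 and 14 CPM in KIT-positive and 17.7, 10.3 and 16.3 CPM in MCAM-high cells (-0.21 ± 0.42, 0.793). The effect of deletion in KIT-positive minus that in MCAM-high cells was 1.53 ± 0.63 (edgeR adjusted p = 0.936), so a difference between genotypes was not called. Another site, chr5:75399178-75400055, 174932 bp from Kit, had 34.7, 49.5, 38.4, 41.5 and 21.9 CPM in later cells, against 2.25, 6.23 and 0 CPM in control KIT-positive cells. All later libraries were above all KIT-positive ones, and the log2 fold change of 3.92 ± 0.56 (edgeR adjusted p = 3.98e-08) was 5.07 without control KIT-positive replicate 2 and 3.11 without replicate 3.

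A site 68263 bp from Myc, the proto-oncogene of cell growth, had a like profile. At chr15:61916317-61917078, later cells had 22.2, 20.4, 31, 34.4 and 26.8 CPM, against 0, 1.04 and 0 CPM in control KIT-positive cells. All other spermatogonial libraries were at or below 3.38 CPM. The log2 fold change of 6.38 ± 0.78 (edgeR adjusted p = 1.08e-09) rests on 1 count in the KIT-positive libraries, and was 8.65 without replicate 2 and 5.66 without replicate 3 of them. Genes of other cell types were nearest to 9 sites for Sertoli cells, 9 for peritubular and endothelial cells, 2 for immune and 1 for Leydig cells.

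The sites near miRNA genes included one called in both genotypes. At chr7:139782182-139782496, 3056 bp from Mir6401, deleted KIT-positive cells had 9.04, 15 and 11.6 CPM, against 1.69, 2.57 and 0 CPM in deleted MCAM-high cells. Control KIT-positive cells had 17.2, 4.15 and 8.3 CPM, against 2.45, 0 and 2.1 CPM in control MCAM-high cells. The groups were apart, with log2 fold changes of 2.93 ± 0.89 in deleted (SE, edgeR adjusted p = 0.0205) and 2.65 ± 0.82 in control cells (0.0212), and the site fell again in later germ cells (-2.77 ± 0.73, 0.0013). A neighbour at chr7:139782867-139783312 was called in control cells (3.4 ± 0.82, 0.00309) but not in deleted cells (2.09 ± 0.81, 0.0738). Of 4 sites 1723 to 7626 bp from Mir137, that at chr3:118435652-118435966 was called in deleted cells (3.24 ± 1.08, 0.0354) but not in control cells (2.24 ± 0.90, 0.0818). Another of these, chr3:118425802-118426231, was called higher in later germ cells (1.26 ± 0.51, 0.0355). A site 3634 bp from Mir138-1 was also higher in later germ cells (2.12 ± 0.74, 0.0139), although the groups overlapped. There control KIT-positive replicate 2 had 7.27 CPM and later replicate 3 had 6.65 CPM. Other sites near miRNA genes outside chromosome 18 rose more in later germ cells, by up to 4.20 ± 0.59 (2.90e-08). One of 4 sites near Mir146, at chr11:43349582-43350027, was also higher there (2.74, 8.85e-05), while another, chr11:43369068-43369832, averaged 15.7 to 18.5 CPM in all 7 groups and was called in none. These values are edgeR log2 fold changes and adjusted p-values. Of all tested distal sites, 34.5% were called higher in later germ cells. In KIT-positive against MCAM-high cells 1.88% were called higher in control and 1.93% in deleted cells.

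Few distal sites were called after deletion of TERT, and the class as a whole moved little. In MCAM-high cells edgeR called 0 of 4248 sites (229 had an unadjusted p under 0.05), against 0.0489% of all peaks. In MCAM-medium cells it called 0 sites (180), against 0.00873%. In KIT-positive cells it called 1 site, lower (200), against 0.00349% of all peaks, 0.00175% in each direction. DESeq2 called 1, 0 and 1 sites. The mean effect over the 3 populations gave 3 sites, all lower, and 245 with an unadjusted p under 0.05, against 0.124% of all peaks in either direction, 0.103% higher and 0.0209% lower. With no filter, the median of that effect was -0.01 over the 6467 sites and 0.02 over all peaks. The shares of non-overlapping sites were near those of all autosomal peaks in KIT-positive and MCAM-high cells and ran the other way in MCAM-medium cells. In KIT-positive cells 333 sites (5.15%) were higher and 196 (3.03%) lower in every deleted library, against 4.52% and 3.58%, and in MCAM-high cells 7.59% and 5.49%, against 7.52% and 5.24%. In MCAM-medium cells, with 2 control libraries, 603 sites (9.32%) were higher and 715 (11.1%) lower, against 11% and 8.53%. The median log2 fold change over tested sites was -0.13 there, against 0.02 over all peaks. No site was called for a difference between the deletion effects of KIT-positive and MCAM-high cells (238 with an unadjusted p under 0.05), and 0% of all peaks were.

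Of the 3 sites called lower in the mean effect, chr8:20122075-20122916 had the largest change. It is 106444 bp from the lncRNA gene Gm36166 and 13366 bp from the pseudogene Gm21811. In KIT-positive cells it had 18.1, 11.2 and 12.4 CPM in deleted and 41.2, 43.6 and 68.7 CPM in control libraries. MCAM-medium cells had 15.5, 6.93 and 20.9 CPM in deleted and 53.7 and 37.5 CPM in control libraries, and MCAM-high cells 22, 21.8 and 17.1 CPM in deleted and 47.9, 50.9 and 35.2 CPM in control libraries. All 9 deleted libraries were below all 8 control ones. The mean log2 fold change was -1.58 ± 0.19 (SE, edgeR adjusted p = 5.35e-07) and stayed below an adjusted p of 0.05 whichever single library was left out. In KIT-positive cells alone it was -1.94 ± 0.33 (0.0229), a call lost without control replicate 3 (0.515), deleted replicate 2 (0.502) or deleted replicate 3 (0.401). The later germ cells, which carry Tert heterozygously, had 31 to 46.9 CPM.

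The second, chr8:20424220-20425093, overlaps the transcribed pseudogene 2610005L07Rik. It had 25.3, 11.8 and 13.2 CPM in deleted and 24, 36.3 and 61 CPM in control KIT-positive cells, which overlap. MCAM-medium cells had 13.7, 7.62 and 15.7 CPM in deleted and 51.4 and 34.3 CPM in control libraries, and MCAM-high cells 13.5, 25 and 24 CPM in deleted and 39.1, 39.7 and 38.4 CPM in control libraries. The mean log2 fold change was -1.34 ± 0.20 (edgeR adjusted p = 7.67e-05), and it passed whichever single library was left out. The third, chr5:60231200-60232064, overlaps the pseudogene Cbfa2t2-ps1, with a mean log2 fold change of -0.92 ± 0.20 (edgeR adjusted p = 0.0309) that was lost in 10 of 17 fits without 1 library, the adjusted p reaching 0.17. Pseudogenes and repeated families share reads with near-identical copies, and the sources used here do not give how such reads were counted, and these levels are therefore uncertain. None of the 3 sites is more than 50 kb from a gene of any biotype. The deleted and the control libraries came from different mice, and a difference between mice cannot be told apart from the deletion.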

How the data were processed

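ATAC-seq was measured in 22 libraries of sorted mouse germ cells, grouped by title and marker entries. The authors deposited 1 table of raw read counts per peak, whole numbers that are not normalized, for 96049 peaks shared by all libraries. The tools named in the submitters' processing notes are Bowtie2, FastQC, Picard and SAMtools, beside the builds GRCm38, mm10 and hg19 with no role stated. The peak caller, how peaks were merged and counted, any Tn5 offset and any filter on duplicates or on reads that map to several places are not given in the sources used here. An offset of a few bases hardly moves reads across peaks of this width, while duplicates widen the spread of low counts. Coordinates were used as deposited, without knowing whether they count from 0 or 1, and no genome sequence was used here.

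Distances were taken to the bounds of 34627 protein-coding and lncRNA genes of RefSeq GRCm38.p6; strand, exons and UTRs were not used. Members, gene lists and comparisons were chosen with earlier results of these data known. Sites were named by a rule: the 8 with the highest mean CPM, the 6 farthest from genes, the 8 largest and 8 smallest log2 fold changes among called sites whose groups do not overlap, called deletion sites, members of the 2 largest clusters, and up to 6 called sites by smallest p next to listed genes. Sites near miRNA genes were added after the data were seen.

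Counts were tested with edgeR 4.0.16 (R 4.3.3): TMM, filterByExpr, a quasi-likelihood F test and Benjamini-Hochberg adjustment over all peaks of a fit at 0.05. The 17 spermatogonial libraries formed 1 fit (57289 peaks, 11 residual degrees of freedom) and the 13 heterozygous ones another (73134 peaks, 9). The SE of a log2 fold change was obtained from its F statistic. Folds given as at least a value use 3 counts over the group at 0 and cover counting error only, as reads of 1 amplified molecule are not independent. DESeq2 1.42.0 and limma 3.58.1 served as alternatives. No pair of replicate libraries held identical values, and their chi-square per peak was 1.82 to 4.3, above sampling noise. The labels do not state that the replicates are separate animals; p-values then measure only how libraries spread, which may be technical.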

Additional observations from a re-analysis of the deposited data

Results flagged for a closer look

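Among the 71 sites or sums examined in the group of 5 later libraries, 4 had a library far from the other 4 by Dixon's test, about as many as chance flags at 1 in 20. At chr15:69634285-69635188, nearest Gm19782, later replicate 4 had 63.6 CPM and the others 33 to 41.4 CPM. At chr5:126352101-126352432, nearest Gm40330, later replicate 5 had 1.1 CPM and the others 0 CPM. At chr12:110352467-110352778, nearest Gm40577, later replicate 4 had 1.3 CPM and the others 0 CPM. At chr6:98754614-98754878, nearest Foxp1, which encodes a forkhead transcription factor, later replicate 2 had 14.2 CPM and the others 8.77 to 10.3 CPM. All 4 calls against control KIT-positive cells passed also without these libraries.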

How the results depend on the processing

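The direction of the class did not depend on the settings tried: lower calls outnumbered higher ones in KIT-positive cells of both genotypes, and higher calls outnumbered lower ones in later germ cells, in every fit. The number of calls moved more. Requiring over 100 kb from genes left 321 called sites for control KIT-positive against MCAM-high cells (523 as reported), 184 against MCAM-medium (294), 225 in deleted cells (399) and 1521 in later germ cells (2560). Requiring over 50 kb from genes of every biotype left 330, 186, 253 and 1619, and 0 for deletion in KIT-positive cells and in the mean. These rules, and at least 200 counts (1289 in later germ cells), keep fewer sites by construction. With no filter on low counts deletion gave 5 sites in MCAM-high cells, 2 in MCAM-medium and 6 in the mean. DESeq2 and a fit of only the groups compared each gave 1 site in MCAM-high cells. Without the 3 libraries of over 70% even counts, an alternative added after the data were seen, 293 were called in control and 259 in deleted cells. Later germ cells called by library name as RoundSpermatid gave 2171 and as Spermatocyte 1816 sites.

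Leaving out 1 library at a time gave 270 to 556 called sites for control KIT-positive against MCAM-high cells, 114 to 332 against MCAM-medium, 0 for MCAM-medium against MCAM-high, 230 to 303 in deleted cells and 2145 to 2469 in later germ cells. For deletion it gave 0 to 1 in each population and 2 to 4 in the mean.

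Names of spermatogonial libraries carry a number that recurs across the populations of a genotype. Deviations of libraries with the same number correlated at -0.32 to 0.11. In groups this small, deviations from the group mean cancel, so these values cannot show whether the numbers pair the libraries. With the number as a replicate block, 353 sites were called for control KIT-positive against MCAM-high cells (523 as reported). The calls were 281 in the same comparison of deleted cells (399) and 120 for control KIT-positive against MCAM-medium cells (294). With limma voom and the block as a random term there were 2 for deletion in MCAM-high and 0 in KIT-positive cells.

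The shares of counts shrink when fewer sites are kept. Over 100 kb from genes they were 1.47% in deleted KIT-positive, 2.18% in deleted MCAM-medium, 2.53% in deleted MCAM-high, 3.22% in later, 1.48% in control KIT-positive, 2.34% in control MCAM-medium and 2.48% in control MCAM-high cells. Over 50 kb from every biotype they were 1.6%, 2.35%, 2.57%, 3.17%, 1.62%, 2.49% and 2.56% in the same order, and with at least 200 counts 1.76%, 2.57%, 2.82%, 3.22%, 1.77%, 2.81% and 2.9%. Of autosomal counts only, 4.02% in deleted MCAM-medium, 4.45% in deleted MCAM-high and 4.29% in control MCAM-medium cells moved by over 1 SD. KIT-positive cells had the lowest share under each.

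Among single sites, 3 values changed sign, none of them called: chr18:82167359-82168053 in control KIT-positive against MCAM-high cells ran from -0.08 without control KIT-positive replicate 2 to 2.47 without replicate 3 (1.79 as reported), and chr5:79561033-79561357 in later germ cells ran from -0.96 without control KIT-positive replicate 2 to 1.04 without replicate 1 and was 0.14 with Spermatocyte-named libraries only (-0.48). The causes were not tested.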

Other observations

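The distal sites fell into 1668 stretches between neighbouring genes, and 133 of these stretches held at least 10 sites each, 2088 in all. In 126 of the 133 the median log2 fold change of KIT-positive minus MCAM-high was below 0 in control cells, and in 122 in deleted cells. In 122 the median of later germ cells minus control KIT-positive cells was above 0. Stretches of 1 chromosome share libraries and neighbours, so these counts are a description. The stretch with the most sites, on chromosome 14 between the lncRNA genes Gm41243 and Gm41244, held 42 in 2044981 bp, with medians of -1.03 in deleted cells, -0.52 in control cells and 0.44 in later germ cells.

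On chromosome 8 a group of 5 sites, chr8:37084552-37105557, included 3 that overlap the pseudogenes Gm8342 or Gm16530. All 4 of its tested sites were higher in later germ cells than in control KIT-positive cells. How reads shared with near-identical copies were counted is not stated, and these levels are uncertain.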
